A study of Mus musculus with 6 samples.

Results

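The killer cell lectin-like receptors, or Klr genes, encode receptors that natural killer (NK) cells use to tell healthy from stressed or infected cells. The set described here is every non-control probe of the array whose gene name is Klr followed by a letter from a to k, a number and optional letters, which gave 31 gene names, of 34844 on the array, measured by 49 of the 55681 probes. RNA came from inguinal fat, a subcutaneous depot that also holds a lymph node, of male C57BL/6J mice, and was hybridised to 6 Agilent 1-colour arrays, 1 per sample. In the 3 samples titled DIO_CR_WR, the mice were 2 months old at the start and had 1 month of free feeding on a high-fat diet, in which fat gave 60% of the energy. Calorie restriction of about 3 weeks then brought their weight down to that of chow-fed mice of the same age, and on renewed free feeding of the fatty diet they regained weight. The 3 samples titled DIO came from mice that ate chow until then and the fatty diet freely over the same final period, so both groups were on that diet when the tissue was taken. The treatment text names the groups differently, using DIO for the regain mice and CTR for the others, and groups here follow the titles. The labelled ages of 6, 7 and 8 months in DIO and 9, 10 and 11 months in DIO_CR_WR do not overlap, so age and diet history cannot be told apart by groups alone. In the order of the sample list these ages go up in steps of 1 month across both groups, and whether they are the true ages was not tested. The labels do not say whether a sample is 1 mouse or a pool, and p-values measure only the spread between these samples.

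NK cells carry inhibitory receptors that read MHC class I molecules on other cells and activating receptors that read stress or viral ligands, and the balance of both decides whether the cell kills. In the mouse, the Ly49 receptors (Klra genes), the NKR-P1 receptors (Klrb1 genes) and the CD94 and NKG2 receptors (Klrd1, Klrc and Klrk1 genes) lie side by side on chromosome 6. In fat, NK cells are a source of interferon gamma in obesity, and some T cells carry several of the same receptors.

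Because the Ly49 genes arose by duplication, their 60-base probes resemble each other. Counted over runs of at least 16 identical bases, 13 of the 49 probes shared such a run with a probe of another Klr gene, in 24 pairs, and all of these pairs lay within the Klra genes. The longest run was 42 bases, between the probes of Klra15 and Klra4. The following 30-base windows of 6 Ly49 probes are aligned on a stretch they have in common. Capitals mark the 6 positions at which the windows differ from each other.
Klra4 A_55_P2004536: tatttgtGgGaagaGaTtggaCaaattCcc
Klra15 A_52_P514407: tatttgtGgGaagaGaTtggaCaaattCcc
Klra23 A_55_P1998011: tatttgtGgTaagaGaCtggaTaaattCcc
Klra23 A_55_P1997997: tatttgtAgTaagaGaCtggaTaaattTcc
Klra7 A_55_P2004541: tatttgtGgTaagaGaCtggaTaaattTcc
Klra6 A_55_P2004547: tatttgtGgGaagaAaCtggaTaaattTcc
Klra4 encodes an activating receptor (Ly49D), while Klra7 (Ly49G) and Klra6 (Ly49F) belong to the inhibitory branch. Against the Klra4 window, counted from 1 at its 5′ end, Klra7 differs by G10T, T17C, C22T and C28T, and Klra6 by G15A, T17C, C22T and C28T. The Klra15 window has 0 differences from that of Klra4. A value for a Klra probe may therefore hold signal from several Ly49 transcripts, and each probe is reported on its own.

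Probes outside the Ly49 genes shared no such run with a probe of another Klr gene. The first 30 bases of some of the probes with large differences between groups are printed here to identify them, with no part singled out.
Klrb1c A_52_P599514: tgcgagtcttagtacaaaaaccatcaagag
Klrc3 A_55_P2155146: acagcagacagctgtacaactttacatcca
Klrc1 A_55_P2004652: ggcctcatctgttttgtcttaattgtcgct
Klrc1 A_52_P390127: atactttttcctgtttcacagaatgacttc
Klrk1 A_52_P272778: aagcaaggcactatatttgaaagtatatag
Klrd1 A_55_P2113498: tctcatacatttgtacccaagtaatttata
Klra8 A_55_P2004527: ttctatcctgttggagagaggacaaatcta
Per the array files, on build mm9, the Klrb1c probe lies at chr6:128734770-128734829, the Klrc3 probe at chr6:129589103-129589162, the Klrk1 probe at chr6:129561864-129561923 and the Klrd1 probe at chr6:129548612-129548671. The 2 Klrc1 probes lie at chr6:129628315-129628374 and chr6:129616237-129616296, and the Klra8 probe at chr6:130065310-130065369. No exon annotation of that build was used here, so the part of the gene is not given.

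The values below are scaled signals, in which 1000 stands for the 75th percentile of an array, and log2 fold changes are DIO_CR_WR minus DIO. Of the 62976 spots per array, none was saturated, and all 8 adipocyte markers were well above background on every array. The DIO_CR_WR arrays had a higher floor: 51.6% to 65.7% of probes were well above background there against 68.2% to 79.2% on the DIO arrays, and the lowest scaled signal called well above background was 16.7 to 57.9 against 7.12 to 12.9. The 9140 probes that were well above background on no array differed by a median log2 value of 1.48 between groups, so differences between dim probes are not read as expression here. DIO replicate 1 shared a slide with all 3 DIO_CR_WR arrays, while DIO replicates 2 and 3 sat on another, so the difference with slide as a block, which is set against DIO replicate 1 alone, is given where it matters.

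In the comparison of weight regain with first-time fatty diet, most Klr probes were higher in DIO_CR_WR. Of the 49 probes, 38 (27 gene names) were well above background on at least 3 arrays and entered the fit. Of these, 27 probes (21 gene names) were higher at an unadjusted p under 0.05, 0 were lower, and 11 were neither. Of all 38460 probes, 5.29% were higher and 21% lower. The 27 probes are 71.1% of the members in the fit. For 26 of the 38, all DIO_CR_WR arrays lay above all DIO arrays, beside 7.21% of all probes and 6.16% of those of a similar mean signal. A log2 fold change of at least 1 was reached by 28, beside 2.89% of all probes. The median over the 38 was 1.24, ranging from -0.56 to 2.45, and that of all probes was -0.19. Probes of a similar mean signal, 16958 in number, had a median of -0.33 and 5.24% of them were higher.

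After Benjamini-Hochberg adjustment over all probes, limma called 0 of the 38 Klr probes and 0% of all probes, with a smallest adjusted p of 0.118 in both. For the 27 higher probes it ran from 0.118 to 0.174. Without DIO replicate 1, which leaves each group on its own slide, 5360 probes were called. Among them were 16 Klr probes, 15 with a positive difference and 1 with a negative one (Klra7 probe A_66_P100029). At an unadjusted p under 0.05, 22 Klr probes were higher there, beside 8.77% of all probes, and 2 were lower. With slide as a block, 22 Klr probes were higher, beside 4.35% of all probes, and 0 were lower, and on slide 1 alone 24 were higher, beside 4.96%. With the labelled age as a covariate 10 were higher, beside 4.67% of all probes, and 1 lower. All 27 probes had a positive difference with either term in the model, from 0.63 to 3.89 with slide and from 0.35 to 3.42 with age. After normexp background correction with quantile normalization the 27 ran from 0.77 to 1.85.

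Scaling to the spike-in controls moved the median of all probes from -0.19 to 0.27 and the share of all probes that were higher from 5.29% to 18.6%, with 34 Klr probes higher and 0 lower. The Klr median lay 1.43 above the median of all probes, a gap that adding 1 constant per array cannot alter. The RNA is from whole tissue, so more cells carrying these receptors and more receptor RNA per cell cannot be told apart.

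**Figure D1:**
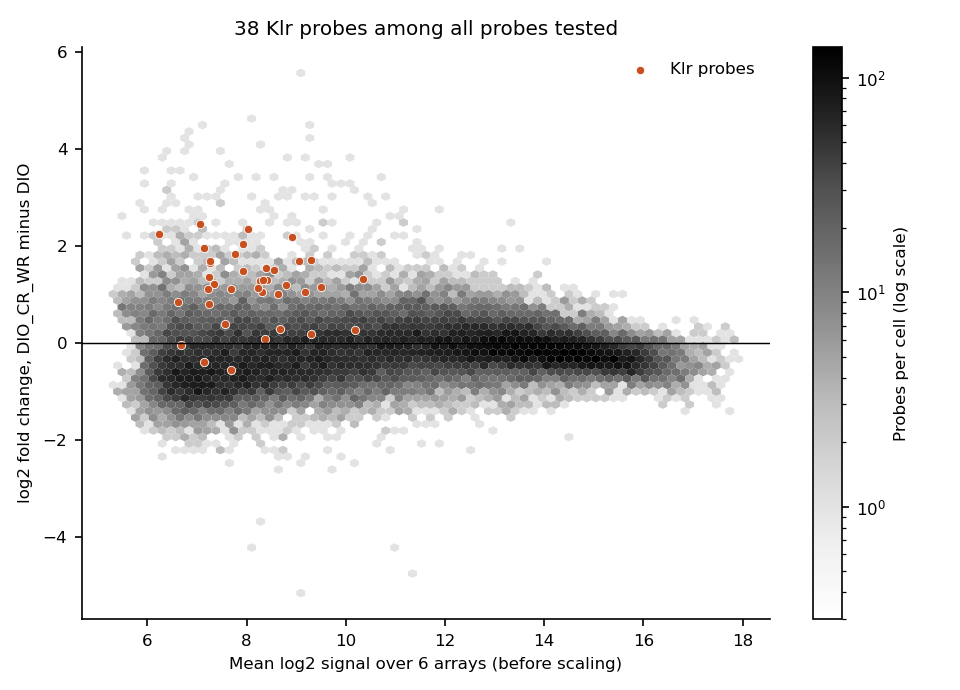
Log2 fold change, DIO_CR_WR minus DIO (y axis), against mean log2 signal over the 6 arrays (x axis) for all 38460 probes (grey, darker where more probes fall) and the 38 Klr probes (orange). The Klr probes lie in the dimmer range of the array, with mean signals of 75.7 to 1306, where the probes of all genes spread widest, and 28 of them reach a log2 fold change of 1.

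**Figure D2:**
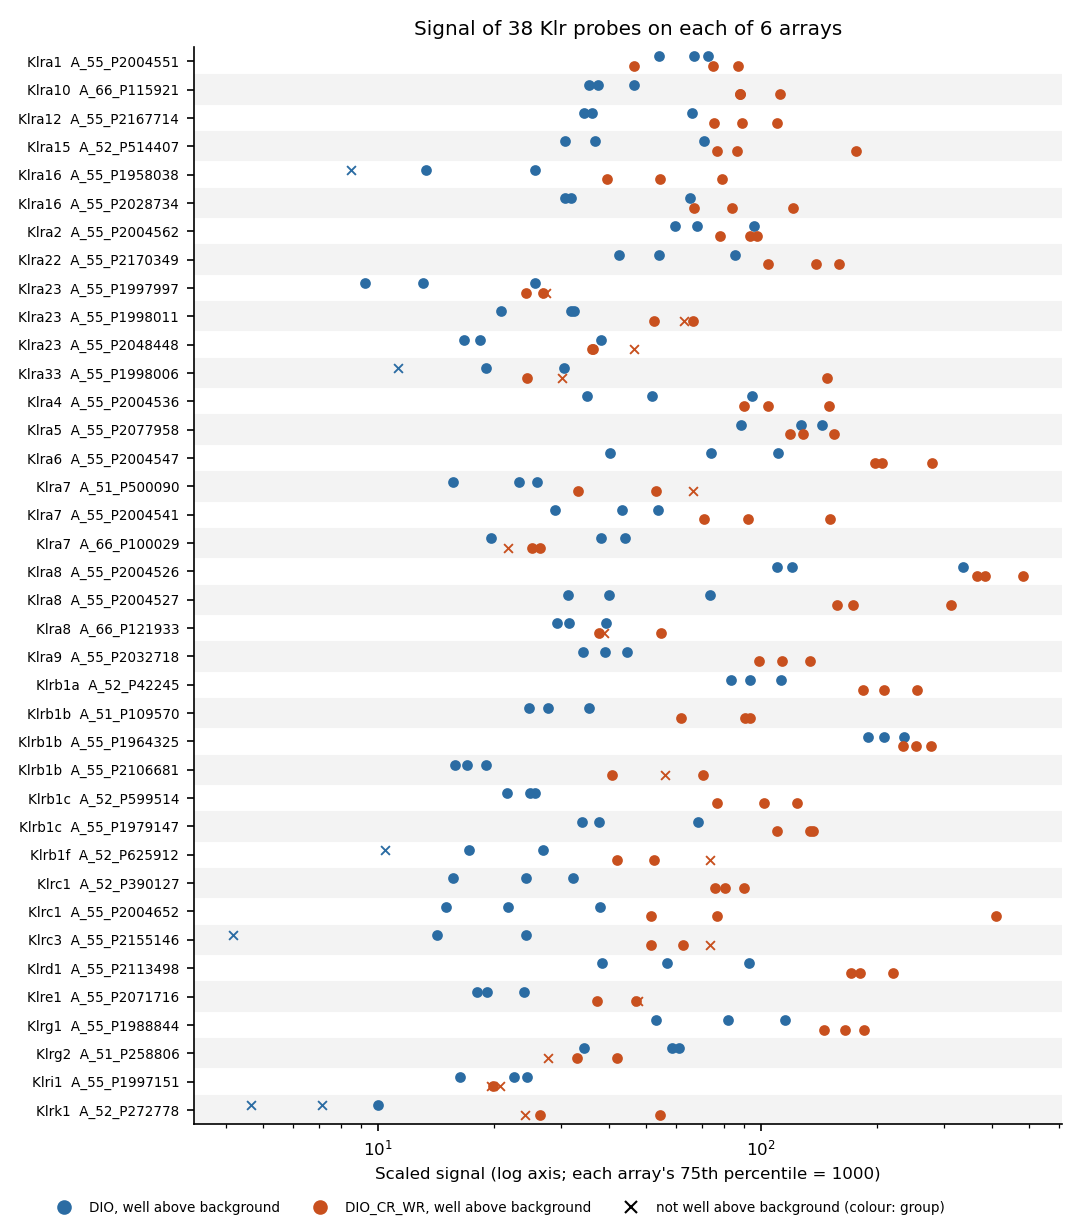
Scaled signal (x axis, log scale, with 1000 as each array's 75th percentile) of the 38 Klr probes in the fit (rows) on the 3 DIO arrays (blue) and the 3 DIO_CR_WR arrays (orange); crosses are arrays on which the probe was not well above background. In 26 rows every orange symbol lies to the right of every blue one.

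For each array, the median deviation of the 38 probes from their own means was taken, less the same median over all probes. It was -0.73, -1.04 and -0.35 log2 units on DIO replicates 1 to 3 and 0.99, 0.61 and 0.48 on DIO_CR_WR replicates 1 to 3. All DIO arrays were below 0 and all DIO_CR_WR arrays above it, and within groups the arrays differed. DIO replicate 3 was the highest DIO array for 30 of the 38 probes, and DIO_CR_WR replicate 1 was the highest of its group for 23. On that last array 14 of the 38 were not well above background, against 0 to 3 on the other 5 arrays, and without it 23 Klr probes were higher, beside 3.77% of all probes. The part of this array's high floor in the values was not tested. Restricted to probes well above background on all 6 arrays, 19 of 23 Klr probes were higher, beside 7.79%.

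Of the 7 NKR-P1 probes in the fit 6 were higher, with a median log2 fold change of 1.51. Klrb1c encodes NK1.1, the surface antigen by which NK cells of C57BL/6 mice are recognised. Its probe A_52_P599514 had scaled signals of 24.9, 21.6 and 25.7 on the DIO arrays and 101.4, 76.8 and 123.9 on the DIO_CR_WR arrays. The DIO arrays lay close together and the lowest DIO_CR_WR array was far above them, with a log2 fold change of 2.04 ± 0.22 (SE; adjusted p = 0.118), and its unadjusted p was the smallest among the Klr probes. The second Klrb1c probe, A_55_P1979147, gave 34.0, 37.7 and 68.3 against 136.2, 109.7 and 134.0. Here DIO replicate 3 was high within its group but did not reach the DIO_CR_WR arrays, and the log2 fold change was 1.51 ± 0.29 (SE; adjusted p = 0.122). Klrb1a, a relative of the activating kind, gave 83.5, 93.6 and 112.6 against 208.8, 184.8 and 254.8. The groups were clearly apart, with a log2 fold change of 1.16 ± 0.20 (SE; adjusted p = 0.118). Klrb1f, another member of the family, gave 17.3, 10.4 and 26.8 against 73.4, 42.1 and 52.4. It was well above background on 2 arrays of each group, and its log2 fold change was 1.69 ± 0.39 (SE; adjusted p = 0.124).

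Klrb1b encodes an inhibitory NKR-P1 receptor that binds the Clr-b ligand, the product of Clec2d, and its 3 probes disagreed. Probe A_51_P109570 gave 27.7, 35.6 and 24.8 in DIO and 90.5, 61.8 and 93.4 in DIO_CR_WR, a log2 fold change of 1.47 ± 0.24 (SE; adjusted p = 0.118). Probe A_55_P2106681 gave 19.2, 15.8 and 17.0 against 56.0, 40.6 and 70.6, a log2 fold change of 1.65 ± 0.24 (SE; adjusted p = 0.118). In both, every DIO_CR_WR array lay above every DIO array, though A_55_P2106681 was not well above background on DIO_CR_WR replicate 1. Probe A_55_P1964325, by contrast, gave 189.9, 209.6 and 235.4 against 234.2, 253.6 and 277.6. The groups overlapped slightly and the log2 fold change was 0.27 ± 0.16 (SE; adjusted p = 0.322). The first bases of the 3 probes, printed to tell them apart, show no part in capitals.
Klrb1b A_51_P109570: cacatggactctgaaaacactgggattctt
Klrb1b A_55_P2106681: ctaaaaatttgccaaactttccatgaaaat
Klrb1b A_55_P1964325: tctcccaaaggcaggaacttgacattgaca
They lie on mm9 at chr6:128765040-128765099, chr6:128764397-128764456 and chr6:128763847-128763906, in this order.

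The CD94 and NKG2 genes include the highest log2 fold changes of the Klr probes, and the 3 Klrc probes in the fit had a median of 2.34. Klrd1 encodes CD94, the chain that pairs with the NKG2 proteins, and gave 56.7, 38.5 and 93.1 in DIO against 221.4, 171.7 and 180.6 in DIO_CR_WR. The lowest DIO_CR_WR array was well above the highest DIO array, and the log2 fold change was 1.69 ± 0.33 (SE; adjusted p = 0.122). Klrc1 encodes NKG2A, the inhibitory partner of CD94, which binds Qa-1. Its probe A_52_P390127 gave 15.7, 24.3 and 32.3 against 80.6, 75.9 and 90.3. The 3 DIO_CR_WR arrays were close together, with a log2 fold change of 1.83 ± 0.28 (SE; adjusted p = 0.118). The other Klrc1 probe, A_55_P2004652, gave 15.0, 21.8 and 37.8 against 410.3, 51.6 and 76.7. DIO_CR_WR replicate 1 stood far above the other arrays here, and the log2 fold change of 2.34 ± 0.79 (SE; adjusted p = 0.147) was 1.44 without it.

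Klrc3 encodes NKG2E, a close relative of NKG2C, and had 3 probes. Probe A_55_P2155146 gave 4.18, 14.3 and 24.4 in DIO against 73.5, 51.5 and 62.6 in DIO_CR_WR. It was well above background on 2 arrays of each group, and its log2 fold change was 2.45 ± 0.62 (SE; adjusted p = 0.129). Set against the dim DIO replicate 1 alone, with slide as a block, it was 3.89, while without that array it was 1.73 and with normexp background correction and quantile normalization 1.26. The other Klrc3 probes, A_55_P2155149 and A_51_P501382, were well above background on no array. The Klrc2 probe, A_51_P475788, for the activating NKG2C chain, was also well above background on no array, at 2.61, 2.43 and 2.54 in DIO and 42.6, 5.12 and 3.72 in DIO_CR_WR. All 60 bases of that probe are found in the RefSeq sequence (GRCm38.p6) before both listed starts of Klrc2, ending 14 and 54 bases before them, and 58 of the 60 match before the start of Klrc3.

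Klrk1 encodes NKG2D, an activating receptor for stress ligands. Its single probe gave 7.15, 4.65 and 9.95 in DIO and 24.1, 54.3 and 26.5 in DIO_CR_WR. All DIO_CR_WR arrays lay above all DIO arrays, with a log2 fold change of 2.24 ± 0.41 (SE; adjusted p = 0.119). The signal was well above background on 1 array in DIO and on 2 in DIO_CR_WR, the least that enters the fit. Its 24.1 on DIO_CR_WR replicate 1 lay below the lowest signal called well above background there, 57.9. After normexp background correction with quantile normalization the log2 fold change of Klrk1 was 1.33. The part of the higher DIO_CR_WR floor in these values was not tested. Klre1, a receptor chain that pairs with Klri1 or Klri2, gave 19.3, 18.1 and 24.1 against 47.5, 37.1 and 47.0, a log2 fold change of 1.1 ± 0.19 (SE; adjusted p = 0.118). Of its partners, Klri1 gave 16.3, 22.6 and 24.4 against 19.6, 20.8 and 19.9, with the DIO_CR_WR arrays inside the DIO range and a log2 fold change of -0.05 ± 0.20 (SE; adjusted p = 0.889). The sign of that value was positive under all 4 other normalizations, from 0.07 to 0.42. Klri1 was well above background on 1 of the DIO_CR_WR arrays and Klre1 on 2 of them. Klri2 was well above background on 2 arrays and did not enter the fit.

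Klrg1, an inhibitory receptor of mature NK cells and effector T cells that binds cadherins, lies outside the cluster, with its probe at chr6:122220629-122220688 on mm9. It gave 81.8, 53.2 and 115.0 in DIO and 185.0, 145.7 and 165.3 in DIO_CR_WR. The groups did not overlap and the log2 fold change was 1.05 ± 0.30 (SE; adjusted p = 0.134). Klrg2, which shares its name and also lies apart from the cluster, gave 34.4, 60.9 and 58.3 against 27.7, 33.0 and 41.9. Its log2 fold change of -0.56 ± 0.28 (SE; adjusted p = 0.254) was the lowest of the Klr probes, and with slide as a block it was -0.03. Leaving out DIO replicate 1 gave -0.82, and taking labelled age as a covariate gave -1.58.

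**Figure D3:**
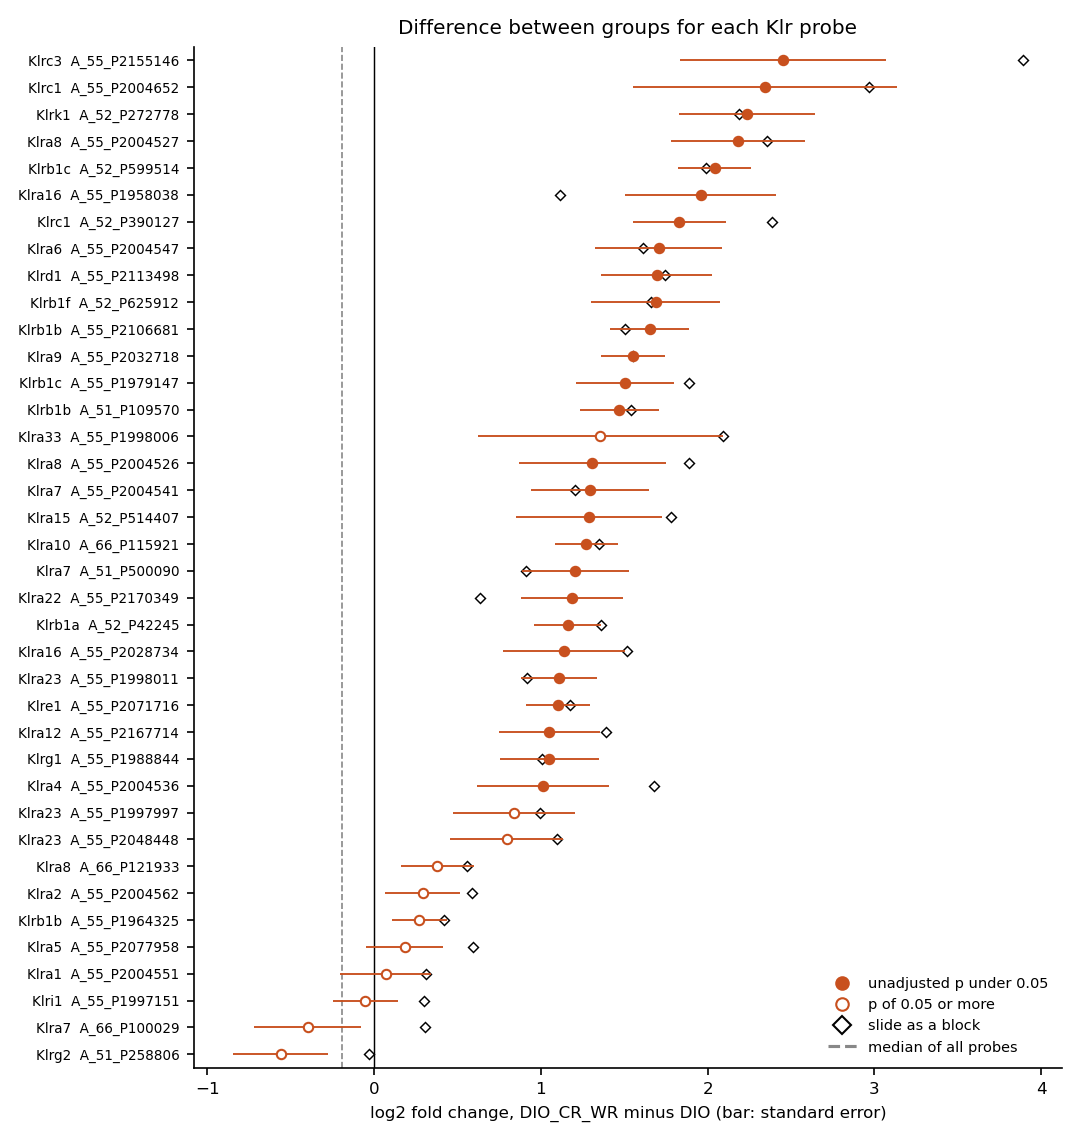
Log2 fold change, DIO_CR_WR minus DIO (x axis), of each of the 38 Klr probes (rows, sorted), with bars for the standard error, filled points for an unadjusted p under 0.05, open diamonds for the value with slide as a block, and a dashed line at the median of all probes, -0.19. The values run from -0.56 for Klrg2 to 2.45 for Klrc3, and 35 of 38 are above 0.

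The Ly49 genes were 22 of the 38 probes, with 15 gene names. Of these probes 14 were higher and 0 lower, with a median log2 fold change of 1.16 and a range from -0.40 to 2.18. Among the activating receptors, Klra8 encodes Ly49H, which recognises a protein of mouse cytomegalovirus. Its probe A_55_P2004527 gave 39.9, 31.2 and 73.7 in DIO and 313.8, 173.3 and 157.4 in DIO_CR_WR. The groups were far apart, with a log2 fold change of 2.18 ± 0.40 (SE; adjusted p = 0.119). Probe A_55_P2004526, on mm9 at chr6:130065245-130065304 and so next to the first, gave 110.2, 120.3 and 335.7 against 481.1, 366.7 and 384.3. DIO replicate 3 came close to the DIO_CR_WR arrays, and the log2 fold change was 1.31 ± 0.44 (SE; adjusted p = 0.146). The third Klra8 probe, A_66_P121933, had a log2 fold change of 0.38 ± 0.22 (SE; adjusted p = 0.3). Klra4, for the activating Ly49D, gave 35.0, 51.8 and 94.7 against 150.1, 104.2 and 90.3. DIO replicate 3 exceeded DIO_CR_WR replicate 3, the only overlap among the 27 higher probes, and the log2 fold change was 1.01 ± 0.40 (SE; adjusted p = 0.174), or 1.68 with slide as a block.

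Among the inhibitory receptors, Klra9 (Ly49I) had closely spaced arrays in each group. It gave 39.1, 34.2 and 44.5 in DIO and 134.0, 113.5 and 98.7 in DIO_CR_WR, a log2 fold change of 1.55 ± 0.19 (SE; adjusted p = 0.118), and the same 1.55 with slide as a block. Klra6 (Ly49F) gave 73.7, 40.3 and 110.9 against 278.8, 198.1 and 207.1. The lowest DIO_CR_WR array stood well above DIO replicate 3, and the log2 fold change was 1.71 ± 0.38 (SE; adjusted p = 0.124). Klra10, named Ly49J, gave 37.4, 35.4 and 46.4 against 112.1, 88.0 and 88.0. All 3 DIO_CR_WR arrays were clear of the DIO arrays, with a log2 fold change of 1.27 ± 0.19 (SE; adjusted p = 0.118).

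The probes of Klra7 (Ly49G) fell into 2 kinds. Probe A_51_P500090 gave 26.0, 15.7 and 23.3 in DIO and 66.4, 53.1 and 33.2 in DIO_CR_WR, a log2 fold change of 1.21 ± 0.32 (SE; adjusted p = 0.13). Probe A_55_P2004541 gave 43.2, 28.9 and 53.7 against 151.2, 92.4 and 70.8, a log2 fold change of 1.29 ± 0.35 (SE; adjusted p = 0.133). Neither overlapped between groups, though A_51_P500090 was not well above background on DIO_CR_WR replicate 1. The 2 probes share 29 bases. The third, A_66_P100029, gave 19.7, 44.2 and 38.1 against 21.8, 26.4 and 25.2, with overlapping groups and a log2 fold change of -0.40 ± 0.32 (SE; adjusted p = 0.452). Its sign was positive with slide as a block (0.31) and under spike-in scaling (0.07), whereas the value was -0.75 without DIO replicate 1 (limma, adjusted p = 0.0472) and -1.27 when labelled age was a covariate. On mm9 that probe spans 1635 bases, from 130181634 to 130183268 on chromosome 6, while A_55_P2004541 covers chr6:130168899-130168958.

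The names Klra15, Klra16 and Klra22 were given to Ly49 genes of a mouse strain other than C57BL/6. Every probe of these 3 names that entered the fit was higher. The array annotation gives no genome position for Klra15 probe A_52_P514407 or for the Klra16 probes in the fit. The probes named Klra12, Klra15, Klra22 and Klra23 matched no RefSeq symbol. Which transcripts these probes measured was not tested. Klra16 probe A_55_P1958038 gave 25.6, 8.48 and 13.4 in DIO and 79.2, 54.5 and 39.5 in DIO_CR_WR, a log2 fold change of 1.96 ± 0.45 (SE; adjusted p = 0.124). With slide as a block it was 1.11, and the probe was not well above background on DIO replicate 2. Klra16 probe A_55_P2028734 gave 30.7, 31.9 and 65.0 against 120.7, 84.1 and 66.8. DIO replicate 3 nearly met DIO_CR_WR replicate 3, and the log2 fold change was 1.14 ± 0.37 (SE; adjusted p = 0.141). Klra15 probe A_52_P514407, which shares 42 bases with the Klra4 probe, gave 30.7, 36.8 and 70.9 against 176.9, 86.2 and 76.7. The pattern over the arrays was like that of Klra4, with a log2 fold change of 1.29 ± 0.44 (SE; adjusted p = 0.147). Klra22 probe A_55_P2170349 gave 85.2, 42.5 and 53.9 against 159.2, 139.3 and 104.2, a log2 fold change of 1.19 ± 0.30 (SE; adjusted p = 0.13). Here DIO replicate 1 was the highest DIO array, and with slide as a block the difference was 0.63. Klra12 gave 34.4, 36.2 and 66.1 against 109.6, 89.2 and 75.1, a log2 fold change of 1.05 ± 0.30 (SE; adjusted p = 0.134). Klra23 probe A_55_P1998011 gave 31.9, 20.9 and 32.5 against 62.8, 66.5 and 52.3, a log2 fold change of 1.11 ± 0.23 (SE; adjusted p = 0.122). The other Klra23 probes had values of 0.84 ± 0.37 and 0.80 ± 0.34 and did not pass an unadjusted p of 0.05. None of the Klra23 probes was well above background on DIO_CR_WR replicate 1.

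The Ly49 probes were split by whether they share a run of at least 16 bases with another gene's probe. Of the 11 Klra probes in the fit that did, 9 were higher, with a median log2 fold change of 1.19. Of the 11 that shared none, 5 were higher, with a median of 1.05. The probes of Klra1 and Klra16 (A_55_P1958038) share a run of 33 bases, and their log2 fold changes were 0.07 and 1.96. Ly49 transcripts were not searched for matches to the probes, so the part of cross-hybridisation in these values was not tested.

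The Ly49 probes that did not pass an unadjusted p of 0.05 were those of Klra1, Klra2, Klra5 and Klra33, besides 1 probe each of Klra7 and Klra8 and 2 of Klra23. Klra1 (Ly49A, inhibitory) gave 54.0, 72.5 and 66.9 in DIO and 87.0, 74.7 and 46.6 in DIO_CR_WR, with the groups interleaved and a log2 fold change of 0.07 ± 0.27 (SE; adjusted p = 0.889). Klra2 (Ly49B), which is known from myeloid cells rather than NK cells, gave 59.5, 68.1 and 95.7 against 78.2, 93.3 and 97.3, a log2 fold change of 0.29 ± 0.23 (SE; adjusted p = 0.432). The Klra33 probe gave 11.3, 19.1 and 30.5 against 30.2, 148.8 and 24.5. DIO_CR_WR replicate 2 alone was high, and the log2 fold change of 1.36 ± 0.74 (SE; adjusted p = 0.278) was 0.54 without it.

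Klra5 (Ly49E), an inhibitory receptor best known from fetal NK cells, shows how far 2 probes of 1 gene can part. Both are printed over their first 30 bases, with the part of the 44 bases that they share in capitals.
Klra5 A_51_P104939: GGACTGTTCTCTGGTATCTATTTTGACAGA
Klra5 A_55_P2077958: agctgcaggagcattgGGACTGTTCTCTGG
Probe A_55_P2077958 was well above background on all 6 arrays, at 88.5, 126.8 and 144.0 in DIO and 128.5, 154.7 and 119.2 in DIO_CR_WR. The groups overlapped, with a log2 fold change of 0.18 ± 0.23 (SE; adjusted p = 0.637). Probe A_51_P104939, present in 10 spots per array, was well above background in 0 of 10 spots on 5 arrays and in 1 of 10 on DIO_CR_WR replicate 3. Its processed intensity averaged 8.46 to 12.7 in DIO and 20.6 to 88.5 in DIO_CR_WR. Probes well above background on no array had median intensities of 8.82 to 12.4 and 20.5 to 85.6 on the same arrays. The group difference of A_51_P104939 is therefore not read as expression. Why the 2 probes part was not tested.

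The 11 probes outside the fit were those of Klra17 (2 probes), Klra19, Klrc2 and Klri2, 2 of the 3 Klrc3 probes, and 1 probe each of Klra5, Klra15, Klra16 and Klra22. Klra19 gave 4.57, 4.5 and 6.4 in DIO and 41.4, 28.6 and 27.1 in DIO_CR_WR. It was well above background on 1 DIO_CR_WR array and on no DIO array. The second Klra22 probe, A_55_P2170350, gave 8.42, 33.3 and 29.3 in DIO and 14.0, 11.0 and 12.1 in DIO_CR_WR. It was well above background only on DIO replicates 2 and 3, which share a slide.

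Along chromosome 6, the interval from 128568515 to 131169345 on mm9 held 43 of the 49 probes. It also holds other lectin genes and non-coding transcripts. Of 47 other probes in it that entered the fit, 8 were higher (17.0%), 9 lower and 30 neither, with a median log2 fold change of 0.03 and a range from -1.19 to 1.81. Of these, 17 bear the name of 1 non-coding range and had a median of -0.44, with 0 higher and 6 lower, and the other 30 had a median of 0.32, with 8 higher (26.7%) and 3 lower. The higher ones were Olr1, the receptor for oxidised LDL, at 1.81, and 1 of the 2 Clec9a probes, a dendritic cell receptor gene, at 0.78. Also higher were probe A_55_P2105733 at 1.63 and a probe of 4930431A04Rik at 1.17. Probe A_55_P2037643, which has no gene name and shares 16 bases with the Klra12 probe, was at 1.45. Probes A_55_P2186051 at 1.74 and A_55_P2157522 at 0.96 lie between those of Klra33 and Klra8. Probe A_55_P2131737, at 0.745, lies between those of Klrb1c. Whether such probes measure Klr transcripts was not tested. Cd69, an activation marker of lymphocytes that lies in the interval, was at 0.93 with limma adjusted p = 0.203. The ligand gene Clec2e was lower, at -0.98 with limma adjusted p = 0.127.

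**Figure D4:**
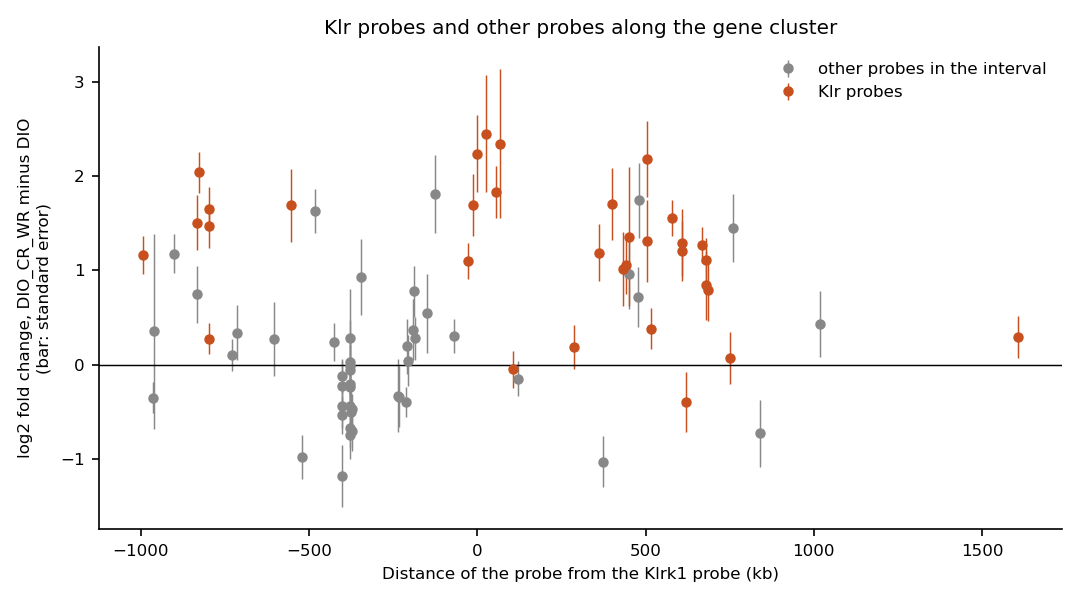
Log2 fold change, DIO_CR_WR minus DIO (y axis, bars for the standard error), against distance from the Klrk1 probe in kb (x axis) for Klr probes (orange) and the 47 other probes in the interval (grey). The grey probes have a median of 0.03, or 0.32 without the 17 that bear the name of 1 non-coding range, while most orange probes lie above 1. Points are probes, not genes, and some of the higher grey probes lie among the Klr probes.

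The sequence before the start is shown for Klrb1c and Klrk1, and for Klra8 as a Ly49 gene, each a gene with a probe among the 27 higher. The windows are from RefSeq, build GRCm38.p6, 5′ to 3′ on the gene's strand, and end at the gene's outermost annotated start. Capitals mark matches to TGTGGT, the core of sites for RUNX factors, and GGAAGT, a core of sites for ETS factors, both strands searched.
Klrb1c: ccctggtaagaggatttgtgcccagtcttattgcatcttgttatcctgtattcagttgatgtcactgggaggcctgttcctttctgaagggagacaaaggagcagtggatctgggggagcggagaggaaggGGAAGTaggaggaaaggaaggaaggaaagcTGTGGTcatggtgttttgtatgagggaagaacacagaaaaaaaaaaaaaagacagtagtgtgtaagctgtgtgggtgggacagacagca
Klrk1: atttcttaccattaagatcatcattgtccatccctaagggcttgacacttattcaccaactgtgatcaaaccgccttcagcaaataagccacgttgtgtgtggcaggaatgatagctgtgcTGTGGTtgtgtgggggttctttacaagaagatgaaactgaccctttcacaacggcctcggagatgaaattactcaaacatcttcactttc
Klra8: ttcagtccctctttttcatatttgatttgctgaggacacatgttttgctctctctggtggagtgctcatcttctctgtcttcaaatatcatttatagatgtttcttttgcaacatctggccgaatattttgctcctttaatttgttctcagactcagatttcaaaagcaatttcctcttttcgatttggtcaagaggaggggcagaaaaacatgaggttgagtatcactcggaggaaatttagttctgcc
They are chr6:128788642-128788891, chr6:129623904-129624114 and chr6:130129899-130130148, all on the minus strand. Over the 250 bases before the start, TGTGGT was found in 7 of 23 windows of 19 Klr genes in the fit, higher or not (30.4%), beside 14.1% of 32851 windows of all genes. GGAAGT was found in 4 of the 23 (17.4%), beside 19.7%. The T-box letters GGTGTGA were found in 0 of the 23, beside 3.33%. The Klra8 window holds none of the 3. Among the Ly49 genes with a window that ends at the outermost annotated start, Klra1, whose probe was at a log2 fold change of 0.07, had TGTGGT. Klra4, Klra5, Klra6, Klra7 and Klra8 did not. These are matches of letters, and TGTGGT and GGTGTGA can overlap by GGT.

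Among receptors of NK cells outside the Klr family, 9 were tested, of which 4 were higher and 2 lower, with a median log2 fold change of 0.41. Each list is counted by 1 probe per gene, the one with the highest mean signal. Of all 26180 probes chosen that way, 5.24% were higher and 21.2% lower, the shares to set beside every list below. Cd96, an inhibitory receptor, was at 1.69 ± 0.49 (SE), Cd244 at -0.71 ± 0.23 (-0.24 with slide as a block) and Itga2, the CD49b integrin of NK cells, at -0.82 ± 0.18. Itga2 was well above background on 1 of the 3 DIO_CR_WR arrays and Cd96 on 2 of the 3 DIO arrays. Ncr1, which encodes NKp46 and marks NK cells among lymphocytes, gave 72.8, 102.0 and 103.6 in DIO and 132.7, 89.0 and 118.3 in DIO_CR_WR. The groups overlapped and the log2 fold change was 0.29 ± 0.23 (SE; adjusted p = 0.455). Eomes, a transcription factor of NK cells, was at 1.1 ± 0.51 (SE; adjusted p = 0.219), or 1.75 with slide as a block.

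The adaptors through which the activating receptors signal, Tyrobp, Hcst, Fcer1g and Cd247, had 0 of 4 higher and 0 lower, with a median of 0.29, or 0.75 with slide as a block. Of 15 genes of the signalling steps below them, 6 were higher and 0 lower, with a median of 0.42, or 0.94 with slide as a block. Sh2d1a, which encodes the adaptor SAP, gave 11.4, 9.01 and 17.4 in DIO and 153.4, 65.0 and 96.0 in DIO_CR_WR. It had a log2 fold change of 3.02 ± 0.38 (SE; adjusted p = 0.118) and was clear of background on 1 of the 3 DIO arrays. Lcp2, the SLP-76 adaptor, was at 0.92 ± 0.21. Of 5 genes of inhibitory signalling 3 were higher, namely Ptpn6 (SHP-1) at 0.87 ± 0.17, Inpp5d (SHIP-1) at 1.58 ± 0.35 and Cblb at 1.01 ± 0.28. Their list had a median of 0.87, or 0.46 with slide as a block, where Inpp5d was at 0.78 and Cblb at 0.44.

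Ligands were counted next. Of 7 tested genes of MHC class I and its loading, from which the ligands of the Ly49 and NKG2A receptors come, 0 were higher and 0 lower, and their median was -0.11. H2-T23, the gene for Qa-1, was at -0.37 ± 0.19 (SE; adjusted p = 0.26). Of 5 ligands of NKG2D, 1 was higher, Raet1b at 0.96 ± 0.19, and the median of 0.34 was 0.88 with slide as a block. Of 4 Clr ligands of the NKR-P1 receptors 0 were higher and 2 lower, Clec2e and Clec2l, while Clec2d was at 0.24 ± 0.20. Clec2l was well above background on 1 of the 3 DIO_CR_WR arrays. Of the 3 cadherins bound by Klrg1, Cdh2 was higher at 0.49 ± 0.16 and Cdh1 was lower, though well above background on no DIO_CR_WR array.

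Of 13 cytokines and receptors that act on NK cells, 4 were higher and 2 lower, with a median of 0.49. They included Il2rb, the receptor chain shared by IL-2 and IL-15, at 1.18 ± 0.30, Il18 at 1.34 ± 0.37 (0.49 with slide as a block) and, lower, Il12rb2 at -0.92 ± 0.24. Il12rb2 was well above background on 2 of the 3 DIO_CR_WR arrays. Over all probes, with 1 per gene name, 5.24% were higher and 21.2% lower. Of 10 transcription factors of NK cells, 3 were higher and 1 lower, with a median of 0.49. Id2 was at 1.16 ± 0.21, Zeb2 at 0.63 ± 0.19 (0.34 with slide as a block) and Ets1 at 0.56 ± 0.18, while the lower one was Tbx21 (T-bet) at -0.96 ± 0.38, which was -0.065 with slide as a block. Of 13 effector genes of killing cells 5 were higher and 1 lower, with a median of 0.92, or 1.34 with slide as a block. Ifng was at 1.93 ± 0.29, the chemokine Xcl1 at 1.88 ± 0.31 and Fasl at 0.95 ± 0.27, whereas Prf1, the pore-forming perforin, was at -0.24 ± 0.19, or -0.37 with slide as a block. The Ifng probe was dim, at 14.4, 14.1 and 25.5 in DIO against 52.3, 73.8 and 74.4 in DIO_CR_WR. It was well above background on 2 of the 3 DIO_CR_WR arrays, and the part of their higher floor was not tested. By adjusted p, 0 genes of any of these lists were called.

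T cells can carry Klr receptors too. Of 11 T cell markers tested, 5 were higher and 1 lower, with a median of 0.84, or 1.28 with slide as a block. Over all probes, with 1 per gene name, 5.24% were higher and 21.2% lower. Cd3g, part of the CD3 complex of the T cell receptor, gave 81.3, 85.2 and 172.2 in DIO and 464.5, 240.1 and 300.0 in DIO_CR_WR, a log2 fold change of 1.60 ± 0.38 (SE; adjusted p = 0.126). Cd3d was at 1.69 ± 0.46, the CD8 chain genes Cd8a and Cd8b1 at 1.41 ± 0.42 and 1.70 ± 0.60, and Cd28 at -0.95 ± 0.25 (-0.58 with slide as a block). Cd8b1 was well above background on 2 of the DIO arrays. Cd4 was at -0.10 ± 0.27, Cd5 at 0.05 ± 0.31 and Lat at -0.29 ± 0.27. With slide as a block these 3 were at 0.37, 0.56 and 0.30. The summed scaled signal of the list was 4635 to 9980 in DIO and 5613 to 6922 in DIO_CR_WR. Most of that sum came from Thy1, at 3244 to 7409 in DIO and 3576 to 3959 in DIO_CR_WR, with a log2 fold change of -0.44 ± 0.31, so the sum says little of the other markers. For B cells, 2 of 6 were higher (Cd79b at 1.51 ± 0.42 and Fcrla at 1.63 ± 0.41) and 0 lower, with a median of 0.45, or 1.05 with slide as a block, and sums of 3154 to 6932 and 4784 to 5292. For lymph node stroma, 2 of 6 were higher (Cxcl13 at 1.70 ± 0.39 and Ccl19 at 0.86 ± 0.15) and 2 lower (Chst4 at -1.05 ± 0.19 and Cr2 at -0.83 ± 0.21), with sums of 7264 to 8845 and 9814 to 12880. The part of these other cells in the Klr values was not tested.

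For macrophages, 2 of 8 markers were higher, Msr1 at 1.26 ± 0.24 and Mrc1 at 0.67 ± 0.15, and 0 lower, with a median of 0.24, or 0.58 with slide as a block, and sums of 55170 to 85730 in DIO and 61190 to 74210 in DIO_CR_WR. Adipocyte markers had 0 of 8 higher and 1 lower, Lipe at -0.55 ± 0.18, with a median of -0.22. Their sums were 147700 to 183700 and 130600 to 183300. Skeletal muscle markers had 0 of 6 higher and 2 lower, Ckm at -0.54 ± 0.16 and Myh4 at -0.43 ± 0.16, with sums of 131700 to 182100 and 112500 to 134100. Over all probes, with 1 per gene name, 5.24% were higher and 21.2% lower. The medians of the Klr probes and of these lists were not tested against each other.

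**Figure D5:**
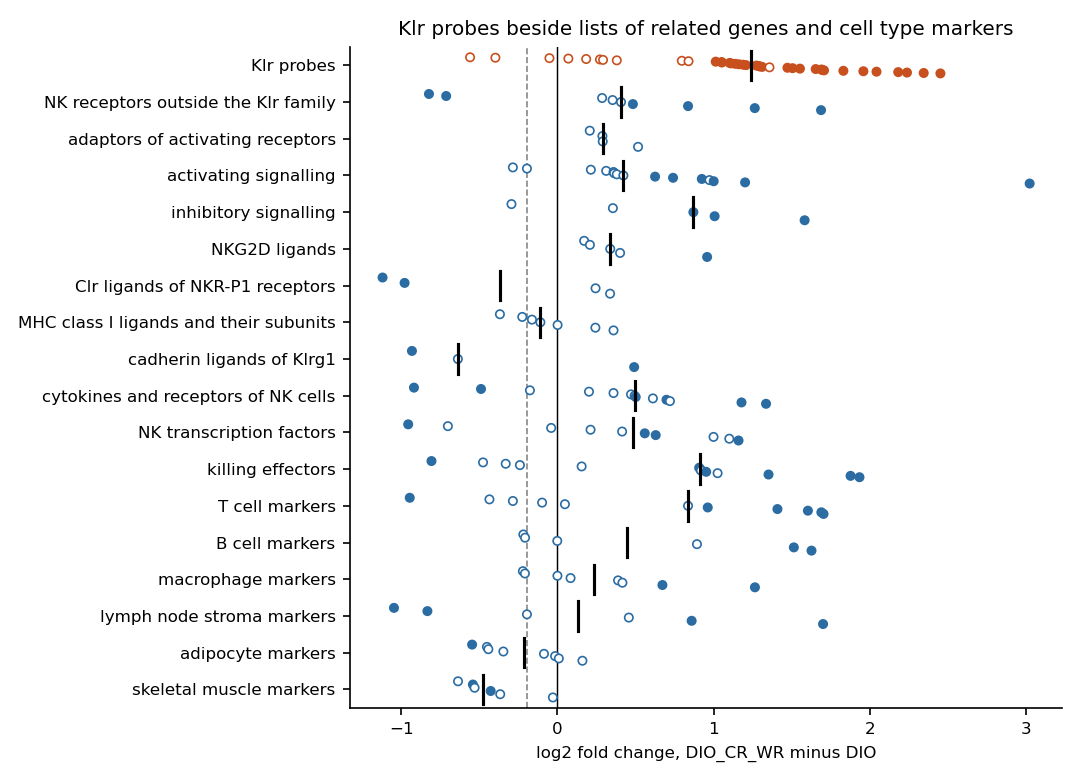
Log2 fold change, DIO_CR_WR minus DIO (x axis), of the 38 Klr probes (orange) and of the tested genes of 17 lists (blue, 1 probe per gene), with filled points for an unadjusted p under 0.05, black bars for medians and a dashed line at the median of all probes, -0.19. The Klr median is 1.24, or 1.19 with 1 probe per gene name, and the highest list median 0.92, for the killing effectors. With slide as a block, which is not drawn, the Klr median was 1.38, that of the killing effectors 1.34 and that of the T cell markers 1.28.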

How the data were processed

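What the authors deposited is the scanner software's intensity of each spot. Background subtraction around the spot, and a surrogate value for signals near background, were applied by Feature Extraction per the file headers, with no normalization across arrays. Its version is 10.7.1.1 in the submitters' processing notes and 10.7.3.1 in the headers. A table of the whole series was not used, since the names of its 18 per-sample value columns do not match the sample titles.

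The tools were limma (3.58.1) and data.table (1.17.8) in R (4.3.3). Control spots (3671) were left out, outlier spots set to missing and spots of a probe averaged as log2 values, which gave 55681 probes. Each array's 75th percentile was subtracted. A probe entered the fit if well above background (at least 0.5 of its spots) on 3 or more of 6 arrays, which held for 38794, and 334 more were left out for outlier flags. Groups were compared with limma's two-sided moderated test, adjusted by Benjamini-Hochberg at 0.05. The script was tested on simulated data. Precision is limited by the 3 arrays per group.

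Values on each array are given for every Klr probe with an unadjusted p under 0.05, and up to 3 genes with the smallest p are named per list. Ncr1, Eomes, Prf1, Cd69, Tbx21, Cr2, Olr1, Clec9a and Clec2d are named besides, chosen after their values were seen. The same holds for Cd4, Cd5, Cd8a, Cd8b1, Lat, Thy1 and 4930431A04Rik. It also holds for probes A_55_P2037643, A_55_P2186051, A_55_P2157522, A_55_P2131737 and A_55_P2105733. The members and lists were chosen with earlier results of these data known. Of the Klr probes, 37 matched a RefSeq symbol through their accession, all with the same name. The closing section gives 18 alternatives.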

Additional observations from a re-analysis of the deposited data

How the results depend on the processing

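The Klr median lay above that of all probes by 1.43 in the main setting. Centring on the median, spike-in scaling, trended variance and the replicate block leave that gap as it is by construction, and under the others of the 18 alternatives it was 1.1 (normexp with quantile normalization) to 1.56. The number of all probes called was 6 with spike-in scaling, 48 with a filter for signal on all 6 arrays, 2 of them Klr probes, and 0 to 5360 when 1 array was left out, the highest without DIO replicate 1. Klr probes higher numbered 10 with the labelled age as a covariate, and 22 to 30 when 1 array was left out. Klr probes lower numbered 1 with age, 1 with replicate number as a block, and 0 to 2 when 1 array was left out. The replicate block left 25 higher, and same-numbered arrays deviated with correlations across probes of 0.004, -0.13 and -0.21. The labels state no pairing, and these correlations cannot decide it, since slide differed within the DIO group. The cause of these changes was not tested.

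Signs changed only for probes that did not pass an unadjusted p of 0.05. Klri1 had 0.23 with quantile normalization, 0.069 with centring on the median, 0.42 with spike-ins, 0.23 with normexp, 0.30 with slide as a block and on slide 1 alone, and -0.23 to 0.064 when 1 array was left out. Klra7 probe A_66_P100029 had 0.068 with spike-ins and 0.31 with slide as a block or slide 1 alone. With age, Klrb1b probe A_55_P1964325 had -0.14, Klra5 -0.26 and Klra2 -0.46. Leaving out 1 array gave -0.12 to 0.33 for Klra1 and -0.02 to 0.33 for Klra5. Signal over background limits the 15 of 38 probes not well above it on all 6 arrays.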
